A study of Mus musculus with 14 samples.

Results

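The sarcomeric myosin heavy chains examined here are the 8 transcripts Myh1, Myh2, Myh3, Myh4, Myh6, Myh7, Myh7b and Myh8. They were chosen by gene symbol from the 24016 transcripts of the deposited expression table, and Myh13 and Myh15 are given apart from them. They were measured in C2C12, a line of mouse myoblasts that form multinucleated myotubes by fusion when serum is withdrawn. The cells were transfected with control siRNA (siCtrl) or with a pool of siRNAs against Klf5 (siKlf5), kept in growth medium for a day and moved to differentiation medium with horse serum. Poly(A) RNA was sequenced after 0, 1, 2 and 3 days in this medium, a single library for each siRNA at each time and 8 in all, and the study used them to ask what loss of the transcription factor Klf5 does to muscle gene expression during differentiation. The knockdown was transient, in 1 cell line that makes immature myotubes without nerve or load, and no siRNA and day had a second library.

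Each sarcomeric myosin heavy chain is the motor of the thick filament, and a muscle fibre's speed follows the isoform it carries. In the mouse, Myh3 (embryonic) and Myh8 (perinatal) precede the adult forms, Myh2, Myh1 and Myh4 encode the adult fast IIa, IIx and IIb chains, Myh7 encodes the slow chain that the heart ventricle also uses, and Myh6 encodes the alpha chain of heart muscle. Myh7b is an ancient slow-type gene whose transcript is often spliced so that little protein is made. Myh3, Myh2, Myh1, Myh4 and Myh8 lie in that order on chromosome 11 of mm9 between 66891802 and 67122135 on the plus strand. Myh6 (55560758 to 55585444) and Myh7 (55589525 to 55613386) lie next to each other on the minus strand of chromosome 14, and Myh7b lies on chromosome 2 (155436979 to 155460043, plus strand).

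The isoforms are similar enough that short reads cannot always be assigned. Of the 50-base windows of the longest coding transcript, 22.8% of Myh6 were identical to Myh7 and 22.2% of Myh7 to Myh6. Of the windows of Myh4, 18.9% occurred in another gene, most often in Myh1, and the corresponding shares were 26.7% for Myh1, 26.9% for Myh2, 21.4% for Myh8, 4.81% for Myh3 and 0.0% for Myh7b. How reads matching several places were treated is not given in the sources used here, so the levels of Myh6 beside the higher Myh7, and of the fast genes beside each other, carry that uncertainty.

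Sequence just before the transcript start is shown for Myh4, Myh7 and Myh6, the genes whose expression differed most between siKlf5 and siCtrl. Only bases outside the exons annotated by GENCODE are printed, from mm9, 5′ to 3′ on the gene's strand. Capitals mark the E-box CANNTG (the letters bound by MyoD and its relatives), CACCC or its complement GGGTG (the core of Krüppel-like factor sites) and CATTCC or its complement GGAATG (the MCAT letters bound by Tead factors). No match shown overlaps another.
Myh4, chr11:67051076-67051313, plus strand: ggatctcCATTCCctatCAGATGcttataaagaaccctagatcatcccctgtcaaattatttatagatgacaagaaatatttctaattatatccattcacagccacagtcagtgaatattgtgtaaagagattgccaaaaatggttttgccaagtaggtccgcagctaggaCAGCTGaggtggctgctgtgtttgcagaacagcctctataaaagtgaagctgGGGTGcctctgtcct
Myh7, chr14:55613472-55613636, minus strand: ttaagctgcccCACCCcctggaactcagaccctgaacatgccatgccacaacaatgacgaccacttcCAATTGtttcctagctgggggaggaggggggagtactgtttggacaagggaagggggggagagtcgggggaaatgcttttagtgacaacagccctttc
Myh6, chr14:55585479-55585694, minus strand: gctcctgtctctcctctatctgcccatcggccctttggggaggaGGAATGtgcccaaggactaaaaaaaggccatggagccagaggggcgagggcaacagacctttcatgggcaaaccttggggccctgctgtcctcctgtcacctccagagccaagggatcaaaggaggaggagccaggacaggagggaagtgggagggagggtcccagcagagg

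In the full 250 bases before the start, searched on both strands, Myh7 held CACCC at 3 places, Myh4 at 1 and the other 6 heavy chain genes at 0. Over the 23950 transcripts of the table with such a window, 52.6% held CACCC, 62.9% an E-box and 11.6% CATTCC. The E-box occurred at 2 places in Myh4 and in Myh7, at 1 place each in Myh3, Myh8, Myh6 and Myh7b, and at 0 in Myh1 and Myh2. CATTCC occurred once in Myh4, Myh1 and Myh6. The printed stretches of Myh7 and Myh6 stop short of the transcript start, since exon bases are left out. That of Myh7 holds 1 CACCC and 1 E-box, and that of Myh6 holds 0 E-boxes. These matches are letters in a window and not sites shown to be bound.

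Recovered depth was 7850497 to 20301506 reads per library, and the deepest library was siCtrl day 2. Klf5 itself was lower in siKlf5 cells on every day, with 35.1 against 223.8 FPKM on day 0 and 211.4 against 933.1 on day 3 (log2 difference over 4 days -1.94, limma adjusted p = 0.0244). The skeletal muscle markers Ckm and Tnnt3, Acta1 and Des identified both arms as muscle, with a median log2 ratio of siKlf5 over siCtrl of 0.00 on day 3 over the 5 muscle markers. That median does not describe the fifth, Myog, a transcription factor of myoblast differentiation, which was lower in siKlf5 cells on each day and measured 2293 against 1386 FPKM on day 3 (log2 ratio -0.73, 95% exact interval -0.87 to -0.58). Its fitted difference over 4 days was -0.46 (unadjusted p = 0.00148, limma adjusted p = 0.228), and its part in the results below was not tested. Of 6 heart markers 2 had a mean FPKM of at least 1, and Nppa was 0 in all 8 libraries. The 2 were Gata4, at 53.5 FPKM in siCtrl and 54.3 in siKlf5 cells on day 3, and Nppb, at 37.9 and 36.8. Of 4 smooth muscle markers 2 had a mean FPKM of at least 1. These were Acta2, at 1196 FPKM in siCtrl and 1207 in siKlf5 cells on day 3, and Smtn, at 456.4 and 384.9. The smooth muscle heavy chain Myh11 did not exceed 1.02 FPKM in any library. The summed level of 5 markers of cycling myoblasts on day 3 was 570.7 in siCtrl and 730.1 in siKlf5 cells, and its part in the results below was not tested. In these bulk samples, fewer cells expressing a transcript and less of it per cell cannot be told apart.

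All 8 heavy chains rose during differentiation. The values are FPKM, which are per kilobase of exon. The authors scaled them to a matrix total of 10000000, so they are higher than conventional FPKM. Different isoforms can be set side by side only roughly. Counting took no more than 3 reads per position, which can hold down abundant transcripts, most in the deepest libraries. How far this limit lowered levels, fold changes or shares here was not tested. Over both siRNAs, day 3 was above day 0 by 4.30 (Myh6) to 7.47 (Myh7b) on the log2(FPKM + 0.1) scale, and each of the 8 passed limma with an adjusted p between 5.78e-07 and 0.00366. Of 14312 transcripts with a mean FPKM of at least 1, 12.8% rose in that comparison (1831) and 17.6% fell (2516). With median-ratio size factors, which moved the median of all transcripts from -0.09 to 0.01, the split was 2173 rising and 1829 falling, and with upper-quartile scaling it was 2100 and 1934. All 8 heavy chains rose under both scalings. In siCtrl cells, every member also rose from each day to the next, as 9.8% of those transcripts did. In siKlf5 cells 7 members did so, against 9.06% of all, and Myh6 was level between days 0 and 1. All 8 were past 2-fold above day 0 by day 3 in siCtrl cells, as 15.5% of all transcripts were, and in siKlf5 cells, as 14.9% were.

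**Figure D1:**
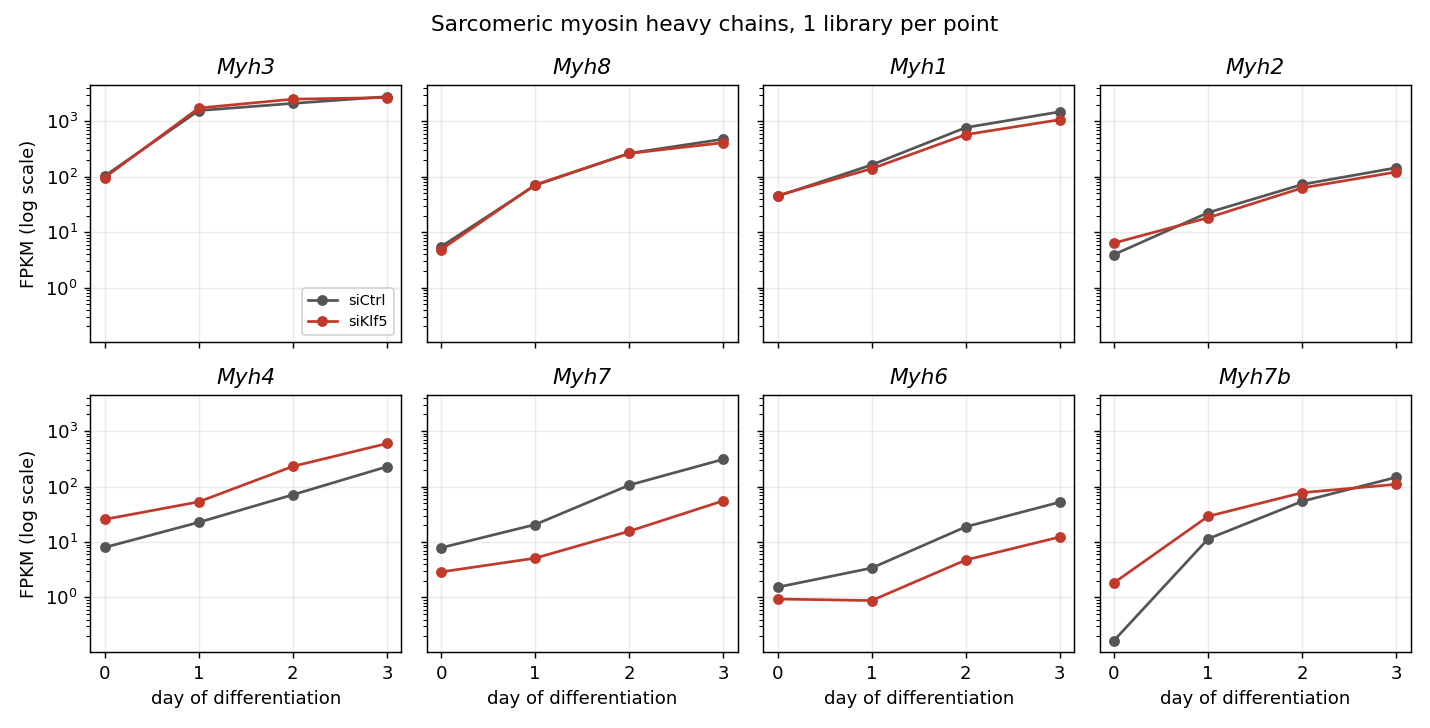
FPKM on a log axis against day of differentiation for each heavy chain transcript, with siCtrl in grey and siKlf5 in red and 1 library per point. Myh7 and Myh6 lie lower and Myh4 higher in siKlf5 cells on all 4 days, while the lines of Myh3 and Myh8 nearly coincide.

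Myh3, the embryonic chain, was the most abundant in every library. Its level in siCtrl cells was 103.1, 1564, 2107 and 2790 FPKM on days 0, 1, 2 and 3, and in siKlf5 cells 96.4, 1736, 2514 and 2685. It rose early: by day 1 it had reached 56.1% of its day 3 level in siCtrl and 64.7% in siKlf5 cells. The siRNA arms overlapped in range, and the fitted difference over 4 days was 0.06 ± 0.09 (SE; limma adjusted p = 0.844). Within days, the log2 ratio was 0.15 on day 1 (95% exact interval 0.06 to 0.24) and 0.25 on day 2 (0.20 to 0.31), and -0.06 on day 3 (-0.11 to 0.00). These within-day intervals are Clopper-Pearson intervals on recovered reads divided by 6, since 1 fragment can leave 6 reads, and no other error is in them. Myh3 had 42113 reads in siCtrl and 29078 in siKlf5 cells on day 2, and 34029 and 28609 on day 3. The limit of 3 reads per position may have held its level down, most in the deepest library, siCtrl day 2. Its effect on these ratios was not tested. Myh8, the perinatal chain, rose more steadily. It measured 5.49, 70.1, 265.1 and 478.9 FPKM in siCtrl and 4.85, 71.8, 264.1 and 412.1 in siKlf5 cells, with a fitted difference of -0.09 ± 0.11 (SE; limma adjusted p = 0.835).

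The fast adult chains did not move together. Myh4, which encodes the fastest chain (IIb), was 7.97, 22.6, 71.2 and 228.5 FPKM in siCtrl cells on days 0 to 3. In siKlf5 cells it was 25.6, 53.0, 231.3 and 598.2. The knockdown library was the higher one on each of the 4 days, by 3.21-fold, 2.34-fold, 3.25-fold and 2.62-fold, and every within-day interval lay above 0, the lowest reaching 0.59 on the log2 scale on day 1. The fitted difference was 1.495 ± 0.14 (SE), a 2.82-fold increase with a limma adjusted p of 0.0185. Myh4 was the 1 transcript of 14312 called higher (0.00699%), beside 8 called lower (0.0559%), and it was at rank 3 of all by p. Of the 8 members, 1 was thus called higher and 0 lower, and 4 had an unadjusted p under 0.05 (Myh4, Myh7, Myh6 and Myh1), as 9.6% of all transcripts had, a share that the same counts given for other lists can be read against. That call needed all 4 days, the filter on low values and the trended variance. Without any 1 day, without the filter or without the trend no transcript at all passed, the fitted difference of Myh4 stayed between 1.43 and 1.59, and its adjusted p was 0.274 to 0.693.

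Myh1 and Myh2, the other adult fast chains, gave no such rise. Myh1 (IIx), second in abundance in every library, measured 44.6, 164.1, 772.3 and 1489 FPKM in siCtrl and 45.8, 140.1, 576.4 and 1071 in siKlf5 cells. The arms were nearly equal on day 0, and the siKlf5 value was 74.6% of siCtrl on day 2 and 71.9% on day 3 (log2 ratio -0.47, 95% exact interval -0.56 to -0.39). Its fitted difference over 4 days was -0.27 ± 0.10 (SE; limma adjusted p = 0.463). Myh2 (IIa) measured 3.95, 22.6, 72.8 and 145.7 FPKM in siCtrl and 6.39, 18.2, 63.0 and 122.1 in siKlf5 cells, with a fitted difference of -0.02 ± 0.24 (SE; limma adjusted p = 0.986). The sum of the fast chains differed little, since Myh1, Myh2 and Myh4 together were 1863 FPKM in siCtrl and 1792 in siKlf5 cells on day 3. The level of Myh4 relative to Myh1 was 0.153 in siCtrl and 0.558 in siKlf5 cells on that day.

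**Figure D2:**
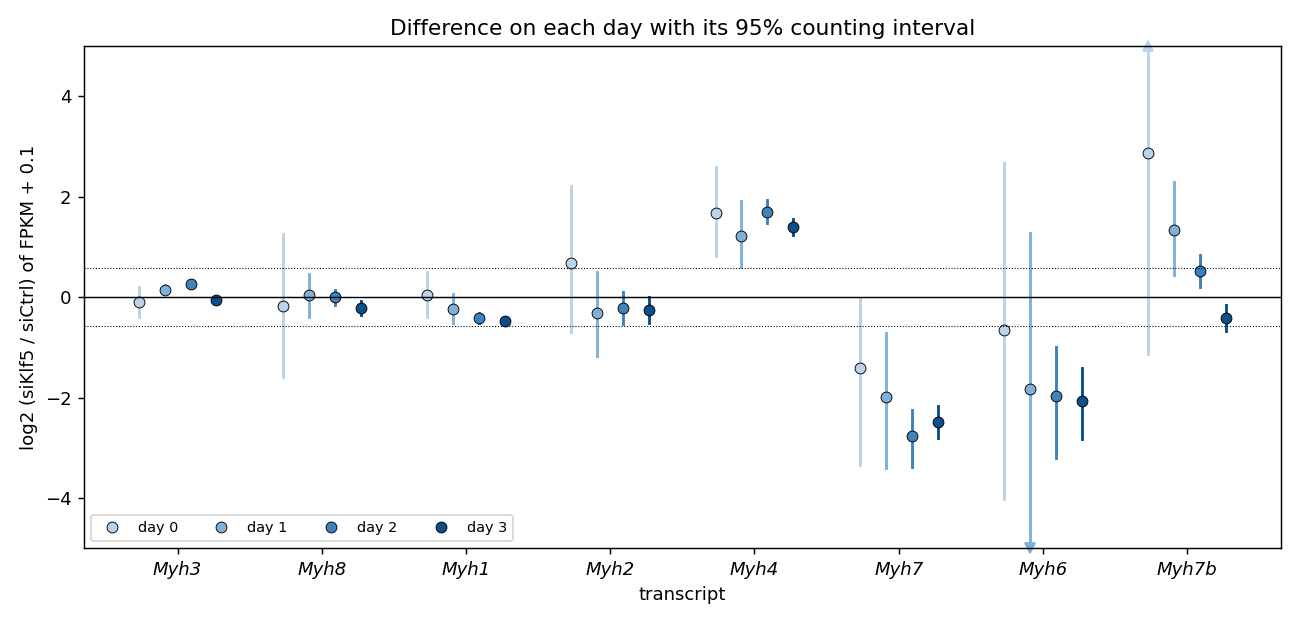
Log2 ratio of siKlf5 to siCtrl for each transcript on days 0 to 3 (light to dark), with bars for the 95% exact interval of counting error on reads divided by 6, triangles where a bar leaves the axis and dotted lines at 1.5-fold. The points of Myh4 lie between 1.22 and 1.70 and those of Myh7 between -2.76 and -1.42, and those of Myh7b descend from 2.86 to -0.42.

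Myh7, the slow chain, was the member with the largest reduction. It measured 7.86, 20.6, 106.4 and 310.8 FPKM in siCtrl and 2.88, 5.11, 15.7 and 55.5 in siKlf5 cells. The siKlf5 library was lower on every day, at 36.7%, 24.8%, 14.7% and 17.9% of siCtrl, and all 4 within-day intervals lay below 0. The fitted difference was -2.16 ± 0.29 (SE), a 4.47-fold reduction that ranked 13 of 14312 by p and missed the threshold (limma adjusted p = 0.0727). With an added term for a siRNA difference that changes linearly over the days, chosen after seeing the data, the same difference had a limma adjusted p of 0.0357. Myh7 still rose in knockdown cells, by 19.3-fold from day 0 to day 3 against 39.5-fold in siCtrl cells.

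Myh6, the alpha cardiac chain, followed the same course at a lower level. It measured 1.53, 3.39, 18.8 and 52.4 FPKM in siCtrl and 0.936, 0.879, 4.74 and 12.3 in siKlf5 cells, the last resting on 132 reads against 642. Its log2 ratio was -1.97 on day 2 (95% exact interval -3.21 to -1.003) and -2.08 on day 3 (-2.82 to -1.42), while the intervals on days 0 and 1 included 0. The fitted difference was -1.63 ± 0.52 (SE; limma adjusted p = 0.39). Myh7 stood above Myh6 by 5.14 to 6.08 times in the siCtrl libraries and by 3.08 to 5.82 times in the siKlf5 libraries. Together they made up 6.44% of the summed heavy chain FPKM in siCtrl and 1.34% in siKlf5 cells on day 3.

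Past 1.5-fold, both Myh7 and Myh6 were lower on all 4 days, as 0.643% of the 14312 transcripts were, and Myh4 was higher on all 4, as 0.377% were. Myh2 and Myh7b were also past 1.5-fold higher on day 0 (9.22% of all transcripts higher, 11.1% lower), and Myh7b on day 1 (16.4% higher, 11% lower). On day 2 the members past it were Myh4, Myh7 and Myh6 (7.69% higher, 13% lower). On day 3 these 3 members were the ones past 1.5-fold (12.5% of all transcripts were lower and 10.7% higher), and the median over the 8 members was -0.34 against 0.00 over all transcripts. With a pseudocount of 1, the day 0 values of Myh6, -0.65, and of Myh2, 0.68, came to -0.39 and 0.58, both within 1.5-fold.

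The difference of Myh7b changed direction over the days. It measured 0.167, 11.4, 54.2 and 147.3 FPKM in siCtrl and 1.84, 29.1, 77.6 and 109.9 in siKlf5 cells. The siKlf5 library was thus higher on days 0, 1 and 2 and lower on day 3. The day 0 values rest on 2 and 20 reads, and their log2 ratio of 2.86 has an interval from -1.14 with no upper limit. The ratio was 1.34 on day 1 (95% exact interval 0.43 to 2.29), 0.52 on day 2 (0.20 to 0.83) and -0.42 on day 3 (-0.68 to -0.16). By day 1, Myh7b had reached 7.74% of its day 3 level in siCtrl and 26.5% in siKlf5 cells. The fitted difference over 4 days was 1.07 ± 0.50 (SE; limma adjusted p = 0.539).

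The composition of the heavy chain pool changed with time in both arms. Myh3 made up 59.0% of the summed FPKM of the 8 transcripts on day 0 in siCtrl cells, 83.2% on day 1, 60.8% on day 2 and 49.5% on day 3, and 52.2%, 84.5%, 67.1% and 53.0% in siKlf5 cells. The largest difference between the arms on day 3 was in Myh4, at 4.05% in siCtrl and 11.8% in siKlf5 cells, while Myh7 was at 5.51% and 1.10% and Myh1 at 26.4% and 21.2%. The sum itself was 174.7, 1879, 3468 and 5643 FPKM in siCtrl and 184.7, 2054, 3747 and 5066 in siKlf5 cells, a log2 ratio of -0.16 on day 3. The limit on reads per position may have lowered the share of Myh3 and this sum, which was not tested.

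**Figure D3:**
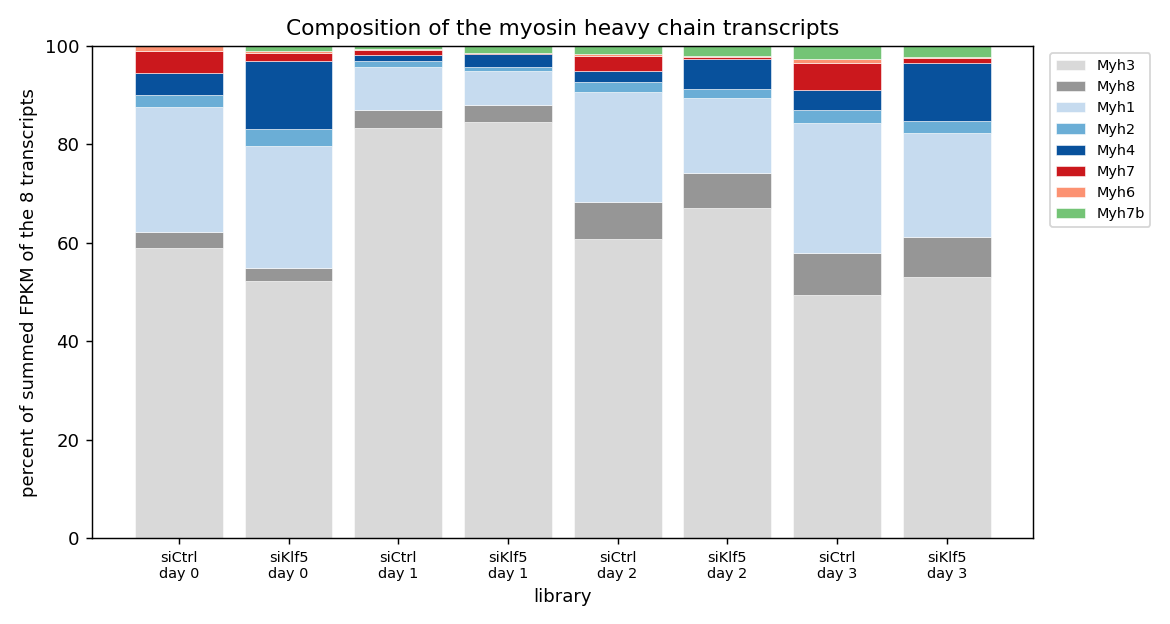
Share of each heavy chain in the summed FPKM of the 8 transcripts, in percent, with 1 stacked bar per library. Myh3 fills 49.5% to 84.5% of each bar, and Myh4 is wider and Myh7 narrower in the siKlf5 bar of each day.

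Ordered by level on day 3, siCtrl cells had Myh3 first, followed by Myh1, Myh8, Myh7, Myh4, Myh7b, Myh2 and Myh6. In siKlf5 cells the order was Myh3, Myh1, Myh4, Myh8, Myh2, Myh7b, Myh7 and Myh6. Myh7b and Myh2 did not differ beyond counting error in either arm, with a log2 ratio of 0.02 (95% exact interval -0.22 to 0.25) in siCtrl cells. All other neighbours in both orders did. Myh7 stood above Myh4 in siCtrl cells, where the level of Myh4 relative to Myh7 was 0.735, and far below it in siKlf5 cells, where that ratio was 10.8.

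The neighbours of the members were compared in the same way. The microRNA row Mir6923 lies in an intron of Myh3 and measured 75.5 against 159.4 FPKM on day 2 and 109.9 against 228.0 on day 3, from 16 and 29 reads on the latter day. The interval of its day 3 log2 ratio, 1.05, was -1.43 to 3.62 and included 0, and the fitted difference over 4 days was 0.70 (limma adjusted p = 0.521). Reads of unspliced Myh3 cannot be told apart from its own. Between Myh3 and Myh2, the noncoding transcript 2310065F04Rik rose to 31.9 FPKM in siCtrl and 9.86 in siKlf5 cells on day 3 (log2 ratio -1.69, 95% exact interval -3.05 to -0.55), with a fitted difference over 4 days of -0.23 (limma adjusted p = 0.953). On chromosome 14, D830015G02Rik runs on the opposite strand and overlaps the last 3662 bases of Myh7. It measured 0.618, 14.2, 57.5 and 120.9 FPKM in siCtrl and 0.679, 1.82, 10.6 and 33.2 in siKlf5 cells. On day 1 it had 15 and 2 reads, and the interval of the ratio included 0. The log2 ratio on day 3 was -1.86 (95% exact interval -3.215 to -0.75). The fitted difference of D830015G02Rik over 4 days was -1.77 (limma adjusted p = 0.372). Its span, introns included, covers 1269 exon bases of Myh7, and reads of both strands were counted. Reads from any exon bases the genes share cannot be assigned to either, and the extent of such bases was not computed. On day 3 the row held 204 reads in siCtrl and 49 in siKlf5 cells, against 3830 and 598 for Myh7. On chromosome 2, Trpc4ap on the opposite strand overlaps the last 31 bases of Myh7b, and it measured 386.0 and 376.2 FPKM on day 3 (fitted difference 0.03, limma adjusted p = 0.923).

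**Figure D4:**
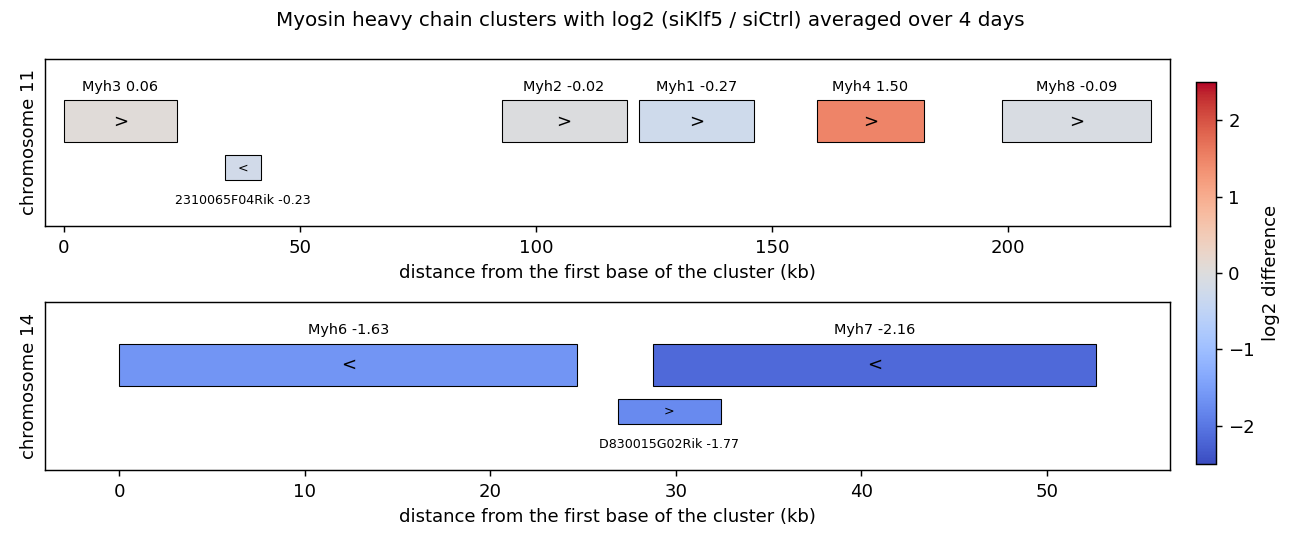
Map of the heavy chain clusters on chromosomes 11 and 14 of mm9, with distance in kb from the first base of each cluster, arrowheads for strand and colour for the fitted log2 difference between siKlf5 and siCtrl over 4 days. Myh4, at 1.495, stands between Myh1 at -0.27 and Myh8 at -0.09, while Myh6 at -1.63 and Myh7 at -2.16 adjoin.

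Myh6, Myh7 and Myh7b each carry a microRNA in an intron, and the family is known to act on fibre type. The mature forms, from RefSeq (GRCm38.p6), are shown with their seeds, bases 2 to 8, in capitals, so that these can be compared.
miR-208a-3p, in Myh6: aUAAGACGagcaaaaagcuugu
miR-208b-3p, in Myh7: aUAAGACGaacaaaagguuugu
miR-499-5p, in Myh7b: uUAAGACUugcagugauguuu
miR-208a-3p and miR-208b-3p have the same seed and differ at 3 bases in all, and the seed of miR-499-5p differs from theirs at 1 base. In this poly(A) RNA, the hairpin rows Mir208a and Mir208b were at 0 in all 8 libraries, and Mir499 had 1 read, in siKlf5 cells on day 3. Mature microRNAs are not polyadenylated, so these rows say nothing of their levels.

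The other class II heavy chains, of nonmuscle cells and specialised muscles, were given for comparison. The nonmuscle chain Myh9 measured 1170 FPKM in siCtrl and 1240 in siKlf5 cells on day 3, and Myh10 measured 100.5 and 135.8. Myh13, the extraocular chain, reached 16.6 and 15.0 FPKM on day 3, and Myh14 reached 10.8 and 14.4. Myh11 and Myh15 stayed near 0. Of the 4 with a mean FPKM of at least 1, 0 were called for siRNA by limma and 0 had an unadjusted p under 0.05, with adjusted p of 0.664 or more.

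Among 15 myosin light chains and kinases, 13 had a mean FPKM of at least 1. For siRNA, 1 of these 13 was called lower by limma, as 0.0559% of all transcripts were, and 2 had an unadjusted p under 0.05. On day 3, 4 of the 13 were past 1.5-fold lower and 1 higher, against 12.5% and 10.7% of all transcripts. Myl4, the embryonic and atrial essential light chain, measured 59.4, 616.2, 1685 and 2390 FPKM in siCtrl and 28.2, 297.5, 929.1 and 1087 in siKlf5 cells. The siKlf5 value was lower on all 4 days, with a fitted difference of -1.03 ± 0.08 (SE; limma adjusted p = 0.00659), the second smallest p of all. The embryonic chain Myh3, in contrast, differed by 0.06. Myl1, the fast essential chain, measured 2662 and 2910 FPKM on day 3 (fitted difference 0.31, limma adjusted p = 0.368), and Myl6b measured 968.4 and 625.3 (-0.23, adjusted p = 0.63). Myl2, the slow and ventricular regulatory light chain, was named after its values were seen. It was at 0 in both arms on days 0 and 1, and measured 27.2 against 6.59 FPKM on day 2 and 36.7 against 5.37 on day 3, where the interval of its log2 ratio, -8.28 to 0.09, included 0.

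**Figure D5:**
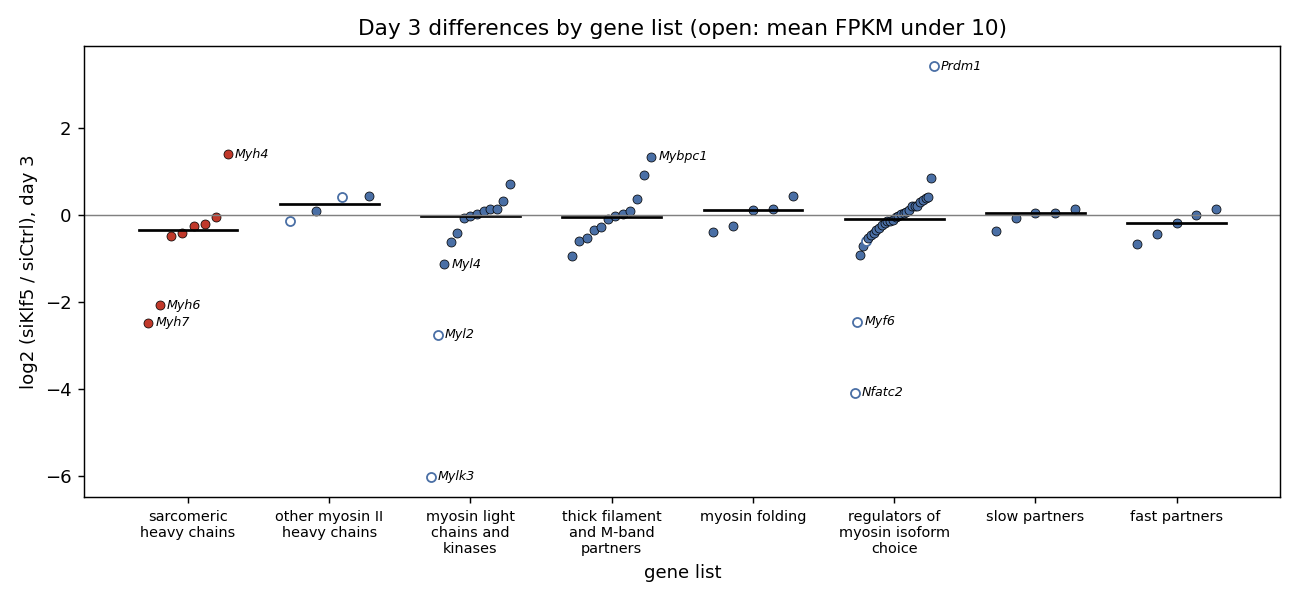
Log2 ratio of siKlf5 to siCtrl on day 3 for the heavy chains (red) and for the genes of the other lists (blue), with black lines at list medians, open symbols for a mean FPKM under 10 and names for differences past 2-fold. The medians lie between -0.34 for the heavy chains and 0.25 for the other class II heavy chains.

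Among slow and fast partners of the thin filament and the calcium store, the troponins were near equal in the arms on day 3. The calcium store genes Casq1, Casq2 and Atp2a1 were lower in siKlf5 cells, with within-day intervals below 0. The limit of 3 reads per position may have held down the most abundant partners, and its effect on their ratios was not tested. Of 5 slow partners 0 were past 1.5-fold on day 3, with a median log2 ratio of 0.03, and slow troponin Tnnt1 measured 1673 FPKM in siCtrl and 1722 in siKlf5 cells. Tnnc1, the troponin C of slow and heart muscle, measured 2681 and 2942, and Casq2, the slow and cardiac calsequestrin, measured 1929 and 1492. Of 5 fast partners 1 was past 1.5-fold lower on day 3, as 12.5% of all transcripts were, with a median of -0.18. This was Casq1, the fast calsequestrin, at 766.2 and 479.4 FPKM. The fast calcium pump Atp2a1 measured 2172 and 1599, and fast troponin C, Tnnc2, measured 2778 and 3041. For siRNA, 0 of these 10 were called by limma, and 1 of each 5 had an unadjusted p under 0.05. Over time, all 10 rose, as 12.8% of all transcripts did. On day 0 more of them were lower in siKlf5 cells, namely 2 of 5 slow partners (median -0.46) and 3 of 5 fast partners (median -0.74) past 1.5-fold. Of all transcripts, 11.1% were past 1.5-fold lower on that day and 9.22% higher. Casq2 was at 75.8 against 31.5 FPKM, Tnnc1 at 248.7 against 148.0 and Atp2a1 at 133.2 against 72.5. The other two were the fast troponins Tnni2, at 96.4 against 33.1, and Tnnt3, at 190.1 against 114.0, both named here after their values were seen.

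The partners of the thick filament bind or anchor the heavy chains. Of 14 thick filament and M-band partners, 12 had a mean FPKM of at least 1. All 12 rose by day 3, as 12.8% of all transcripts did. For siRNA, 0 were called by limma, and 4 had an unadjusted p under 0.05. Mybpc1, the slow myosin binding protein C, was the higher one in siKlf5 cells on each day, with 65.3 against 165.1 FPKM on day 3 (log2 ratio 1.34, 95% exact interval 0.96 to 1.72; fitted difference 2.58, limma adjusted p = 0.315). Mybpc2, the fast form, measured 84.3 and 58.6 (-1.44 over 4 days, adjusted p = 0.463). Both fits include day 0 values near the floor, where Mybpc1 had 0 reads in siCtrl and 30 in siKlf5 cells and Mybpc2 had 7 and 0. Over days 1 to 3 the mean log2 ratio was 1.62 for Mybpc1 and -0.77 for Mybpc2. Mybph, a relative of both, measured 3337 and 1724 (-0.79, adjusted p = 0.0868).

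Myosin heads need chaperones to fold. The muscle chaperone Unc45b rose from 9.07 to 452.7 FPKM in siCtrl and from 7.76 to 346.4 in siKlf5 cells, and the methyltransferase Smyd1 measured 277.7 and 376.0 on day 3. Unc45a, Hsp90aa1 and Hsp90ab1 measured 86.0 and 71.7, 1090 and 1183, and 3022 and 3305 on day 3. Of these 5, 2 rose and 1 fell over time, against 12.8% and 17.6% of all transcripts. For siRNA, 0 were called or had an unadjusted p under 0.05, all with a limma adjusted p of 0.677 or more.

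Of 33 regulators of isoform choice, 30 had a mean FPKM of at least 1. Of these 30, 11 rose and 2 fell over time, against 12.8% and 17.6% of all transcripts. For siRNA, 0 were called by limma and 4 had an unadjusted p under 0.05. Maf, a factor of the large Maf group that drives Myh4, measured 13.97, 38.4, 71.4 and 79.9 FPKM in siCtrl and 40.7, 75.8, 103.6 and 144.1 in siKlf5 cells. It was higher in siKlf5 cells on all 4 days, with a fitted difference of 0.98 ± 0.18 (SE; limma adjusted p = 0.172), and its part in the level of Myh4 was not tested. Tead4, a factor that binds MCAT letters, measured 298.4 and 235.0 on day 3 (-0.57, adjusted p = 0.172), and Rcan1, a target and inhibitor of calcineurin, measured 122.8 and 89.1 (-0.54, adjusted p = 0.178).

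Over the 8 libraries, the 11590 other transcripts with a mean FPKM of at least 10 were ranked by Pearson correlation of log2 values with each member, as a description, since the libraries share the 4 days and the siRNAs. Myh3 was most like Ckm (r = 0.999), the muscle creatine kinase, Tnni1 (0.997) and A930016O22Rik (0.997). Myh8 was most like Hsd11b1, Filip1 and Myom3 (0.998 to 0.997). Myh1 was most like the fast calsequestrin Casq1 (0.997), Mef2c and Adssl1. Myh2 was most like Adssl1 (0.994), Myh1 (0.993) and Kidins220. Myh7 and Myh6 were each other's nearest (0.988), followed by Mir3074-1 and Dio2 for Myh7 and by Erbb2 and Dhcr7 for Myh6. Myh7b was most like Cers1 (0.996), Wisp2 and Txlnb. Myh4 had the least close matches of the 8, with Ptgfrn at 0.974, Sim2 at 0.968 and Focad at 0.968.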

How the data were processed

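Poly(A) RNA-seq libraries of C2C12 cells (siCtrl and siKlf5, days 0 to 3, 8 libraries) were analysed. The 6 ChIP-seq samples were not analysed here. According to the submitters' notes, the authors used STAR for alignment to mm9 and HOMER for exon counting (strand ignored, no more than 3 reads per position, a single transcript per gene). The versions used for RNA-seq are not given in the sources used here. The deposited FPKM values were scaled to a matrix total of 10000000. The 8 deposited log2 columns were not used, and read counts normalized with DESeq2, named in the study's text, were not analysed here.

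From FPKM and exon length, whole reads were recovered (3512 to 4917 low values were examined in each library, and 100.0% were whole to within 0.1). Transcripts with exactly 6 reads outnumbered those with 5 by 5.71 to 12.4 times, so intervals were computed on reads divided by 6. limma 3.58.1 (R 4.3.3, eBayes with trend) was fitted to log2(FPKM + 0.1) of transcripts with a mean of at least 1, with day as a factor and siRNA as a term (3 residual degrees of freedom, whose spread holds any true difference between days). p-values were adjusted by Benjamini-Hochberg over all transcripts and called at 0.05. Fold changes on this scale understate changes of low transcripts. Where a single day is compared there is 1 library per arm and no test. In the main fit the p-values rest on how the siRNA difference varied over the 4 days, with variances moderated by eBayes. They do not measure a spread between repeats of 1 siRNA and day. The calculations were tested on simulated data drawn with counting error only and without day differences. That simulation cannot show how they behave with other variation between libraries. Intervals used scipy 1.17.1 under Python 3.11.15, tables pandas 2.3.3 and figures matplotlib 3.10.9.

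The members, lists and rules were chosen with earlier results of these data known. Named were all members, all other class II heavy chains, folding genes and myosin microRNAs, up to 3 genes of each other list by largest mean log2 ratio over days 1 to 3 with a mean of at least 10, cluster neighbours, and the 3 transcripts most correlated with each member. Alternatives were other pseudocounts, filters, scalings, cutoffs, days left out and an untrended variance.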

Additional observations from a re-analysis of the deposited data

Results flagged for a closer look

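The difference of Myh7b between siKlf5 and siCtrl changed direction with the day. Its log2 ratio lay above 0 by counting error on days 1 and 2 and below 0 on day 3, and the highest and lowest of these ratios differed by 1.77. A linear change with day was tested in limma over all transcripts, as a term added after seeing the data. The ratio of Myh7b fell by 1.07 per day, with an unadjusted p of 0.00346 and an adjusted p of 0.794, and 0 of 14312 transcripts passed that test, with 694 at an unadjusted p under 0.05.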

How the results depend on the processing

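The 9 calls for siRNA became 0 without the filter on low values, without the variance trend and without any 1 day (a range of 0 to 0 with a day left out, where 980 to 1147 transcripts had an unadjusted p under 0.05 against 1374), and 18 with the added siRNA by day slope, which included all 9. They were 7 to 10 under the other alternatives. The 4347 calls for day 3 against day 0 became 2161 without the filter and 2593 without the trend, and 3119 to 4217 with day 1 or 2 left out. Among the members, Myh6 lost its day 3 call without the filter (adjusted p = 0.0613). The fitted siRNA difference changed sign for Myh3 (-0.0006 without day 2) and for Myh2 (0.0716 without day 1, 0.0389 without day 2 and 0.0542 without day 3), both near 0 throughout, and in no other member under any alternative run. The counts past 1.5-fold on days 0, 1, 2 and 3 (2914, 3917, 2957 and 3328) were 1761, 2224, 1666 and 1962 at 2-fold. Without the filter they were 5018 on day 0, 5253 on day 2 and 5422 on day 3, and with a mean of at least 5 they were 1744, 1689 and 2061. Of 32 member ratios, 19 had an interval excluding 0, and 25 did on undivided reads. Day 0 values of Myh6 and Myh7b rest on 2 to 20 reads. The alternative that used the deposited log2 columns was not run, since 1 of them carries no day. The cause of these shifts was not tested, apart from the fewer samples when a day is left out. Day as a factor pairs the siRNA arms within each day in every fit. No paired analysis was possible beyond that, because the labels give no replicate numbers.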
